A study of Mus musculus with 12 samples.

Results

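The 9 genes described here code for secreted products of white adipocytes (*Lep*, *Adipoq*, *Retn*, *Cfd*, *Rbp4*, *Apln*) and for genes known for their link to fat mass or fat cell size (*Nnat*, *Sfrp5*, *Mest*). The rule that names them is a list of symbols with no threshold on a measured value, and they were found in the data by symbol as 9 of the 55401 genes counted. All 9 had enough counts to be tested, together with 16540 genes in all. RNA came from the subcutaneous white adipose tissue (scWAT) of female mice aged 16 weeks that were caged singly, kept at 30°C for 1 week and then held at 30°C or 8°C for 1 week. At 30°C (thermoneutrality, TN) a mouse needs no extra heat, and at 8°C (cold) it must make heat. Each temperature was studied in *Jmjd1a* +/+ mice, the wild type controls, and in *Jmjd1a* HY/HY mice. HY/HY mice carry in every cell of the body a histidine to tyrosine change that disables the demethylase domain of JMJD1A, an enzyme that removes methyl groups from lysine 9 of histone H3. The knock-in was made by genome editing in C57BL/6J eggs, so no drug or Cre recombinase is involved, and the females used came from 1 of the 2 lines that were made. There were 3 libraries in each of the 4 groups. The labels number them as replicates without saying that each came from a separate mouse, so the p-values measure the spread between these libraries.

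White adipocytes store triglyceride and release protein hormones, called adipokines, that report on the size of the fat store and act on appetite, insulin sensitivity, blood vessels and innate immunity. In cold, adrenergic nerves act on scWAT, and adipocytes that burn fuel through *Ucp1*, called beige adipocytes, appear among the white ones. Leptin, the product of *Lep*, generally follows fat cell size and falls with adrenergic stimulation or fasting, and *Mest* transcript is a known marker of fat tissue that is expanding.

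Each library held 13592629 to 26352081 counts on the sense strand. All libraries from 8°C were the shallower ones, with 13592629 to 17955584 counts against 18305586 to 26352081 at 30°C. Values are given as CPM, the usual count of a gene relative to the size of its library, with library sizes adjusted by the trimmed mean of M-values (TMM). The *Jmjd1a* transcript, listed as *Kdm3a*, was at 39.9 ± 3.77 to 49.3 ± 11.2 CPM (SD, n = 3) in the group means and did not differ by genotype at 8°C (adjusted p = 0.6039) or at 30°C (adjusted p = 0.753). These counts do not tell the altered allele from the normal one. The tissue label was checked against 8 general adipocyte genes such as *Fabp4* and *Plin1*, whose summed level was 17571 to 50135 CPM over the 12 libraries. A pair of libraries stood apart, both from 30°C. The summed level of 5 skeletal muscle genes was 1091 CPM in replicate 2 of +/+ mice and 2.82 to 20.1 CPM in the other 11 libraries. Replicate 3 of HY/HY mice had 16.8% mitochondrial counts, where the others of its group had 9.3% and 9.75%, the highest share of unmapped pairs (28.8%) and the lowest sum of 6 mammary epithelial genes (529.5 CPM) of the 12 libraries, and an adipocyte sum of 44136 CPM beside 23882 and 18011. Values of comparisons that use either library are also given without it for some of the genes it moved.

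Of the 9 genes 5 passed the test for an effect of cold in +/+ mice (described further on), and the 150 bases before the start site of each are shown here so that the sequences of the genes that moved can be compared. They were read from RefSeq on the GRCm38.p6 assembly (mm10) on the strand of the gene, at chr6:29060071-29060220 for *Lep* (plus strand), chr10:79890703-79890852 for *Cfd* (plus), chr2:157559928-157560077 for *Nnat* (plus), chrX:48034854-48035003 for *Apln* (minus) and chr6:30737900-30738049 for *Mest* (plus, the second of its 3 RefSeq start sites). Capitals mark matches to 2 of the motifs that were searched, the GC box GGGCGG bound by Sp1 and the palindrome TTGCGCAA bound by C/EBP factors.
Lep: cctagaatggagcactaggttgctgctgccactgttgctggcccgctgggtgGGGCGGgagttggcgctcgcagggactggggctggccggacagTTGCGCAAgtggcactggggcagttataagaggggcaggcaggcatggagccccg
Cfd: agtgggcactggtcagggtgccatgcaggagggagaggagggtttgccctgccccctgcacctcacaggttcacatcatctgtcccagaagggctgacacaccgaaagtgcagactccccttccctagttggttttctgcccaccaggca
Nnat: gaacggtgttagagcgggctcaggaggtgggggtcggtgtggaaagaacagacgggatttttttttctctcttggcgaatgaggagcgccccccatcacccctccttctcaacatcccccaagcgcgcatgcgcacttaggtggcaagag
Apln: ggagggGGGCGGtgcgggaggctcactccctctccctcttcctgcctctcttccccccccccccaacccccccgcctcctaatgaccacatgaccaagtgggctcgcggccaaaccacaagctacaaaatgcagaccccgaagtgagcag
Mest: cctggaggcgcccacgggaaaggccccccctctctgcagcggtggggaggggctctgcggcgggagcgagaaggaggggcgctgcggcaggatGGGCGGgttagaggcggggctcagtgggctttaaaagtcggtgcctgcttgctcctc

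The search covered 300-base windows, 250 bases before to 50 after each start site, on both strands. All 9 genes had a window, with 12 windows in all because *Rbp4* has 2 start sites and *Mest* has 3. TTGCGCAA was found at positions -55 to -48 of *Lep* and in no other window of the 9 genes, and it is present in 0.183% of the 32851 promoters of the RefSeq table. GGGCGG, present in 35.7% of promoters, was found at -98 to -93 of *Lep*, at -144 to -139 of *Apln*, at -57 to -52 of the *Mest* window printed above, in the other *Mest* windows and in windows of *Rbp4* and *Sfrp5*. The TATA box letters TATAAA, present in 13.6% of promoters, were found at -28 to -23 of a *Rbp4* start site alone. AGGTCA (16.3% of promoters), CACGTG (7.15%) and TGACGTCA (1.79%) had no match in the 12 windows, and no motif of the 6 was found in the windows of *Adipoq*, *Retn*, *Cfd* or *Nnat*. A match is a description of the letters only. TTGCGCAA holds no other motif of the search, and none of the printed matches overlap.

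The genes lie on 7 chromosomes of GRCm38.p6 and all are annotated as protein coding. *Lep* (ENSMUSG00000059201.12) spans chr6:29060221-29073876 and *Mest* (ENSMUSG00000051855.15) chr6:30733506-30748466 on the same chromosome. *Adipoq* (ENSMUSG00000022878.5) spans chr16:23146536-23157968, *Retn* (ENSMUSG00000012705.16) chr8:3655770-3659818 and *Cfd* (ENSMUSG00000061780.6) chr10:79890853-79892655. *Rbp4* (ENSMUSG00000024990.13) spans chr19:38116620-38125321, *Sfrp5* (ENSMUSG00000018822.7) chr19:42197971-42202252 and *Apln* (ENSMUSG00000037010.7) chrX:48025146-48034853. *Nnat* (ENSMUSG00000067786.16), at chr2:157560078-157562525, lies wholly inside *Blcap*. *Mest* shares 913 bases with *Copg2*, its neighbour on the other strand.

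Before any comparison, the levels were ordered within each group as CPM per kilobase of transcript, the scale on which genes can be set against each other. In +/+ mice at 30°C *Cfd*, which codes for adipsin (complement factor D), stood far above the rest at 13493 CPM per kb. *Adipoq*, which codes for adiponectin, followed at 1612, then *Retn* (resistin) at 720.0 and *Nnat* (neuronatin, a small membrane protein of the endoplasmic reticulum) at 502. *Rbp4*, the carrier of retinol in blood, was at 231 and *Lep* at 87.5 CPM per kb. *Apln* (apelin, a peptide that acts on blood vessels) at 2.47, *Mest* (a hydrolase-like protein of the endoplasmic reticulum) at 1.14 and *Sfrp5* (a secreted inhibitor of Wnt ligands) at 1.06 CPM per kb closed the order. The library ranges of *Retn* and *Nnat*, of *Apln* and *Mest*, and of *Mest* and *Sfrp5* overlapped, so these neighbours did not differ beyond their spread.

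Outside that group the order kept *Cfd* first and *Sfrp5* last, and its main move was that of *Nnat*. In +/+ mice at 8°C *Nnat* stood at 53.3 CPM per kb, where its library range overlapped that of *Lep* at 33.6. *Apln* and *Mest* at 8°C were at 8.78 and 8.26 CPM per kb with overlapping ranges. In HY/HY mice at 8°C *Lep*, at 134 CPM per kb, lay above *Nnat* at 49.1, with no overlap of their libraries. The 9 genes together took 1.33% to 2.45% of the sense counts in +/+ mice at 30°C and 0.835% to 0.853% at 8°C. In HY/HY mice they took 1.31% to 1.86% at 30°C and 1.37% to 1.47% at 8°C.

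The genes varied to very different degrees across the 12 libraries. The highest library exceeded the lowest 83.7-fold for *Nnat*, 22.4-fold for *Mest*, 12.1-fold for *Lep* and 9.86-fold for *Apln*. For *Rbp4*, *Adipoq*, *Cfd*, *Retn* and *Sfrp5* this ratio lay between 2.62 and 3.35. Counting error differed as widely, since *Sfrp5* rested on 33 to 93 counts a library, *Mest* on 41 to 659 and *Apln* on 80 to 565, whereas *Cfd* rested on 83916 to 338126.

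**Figure D1:**
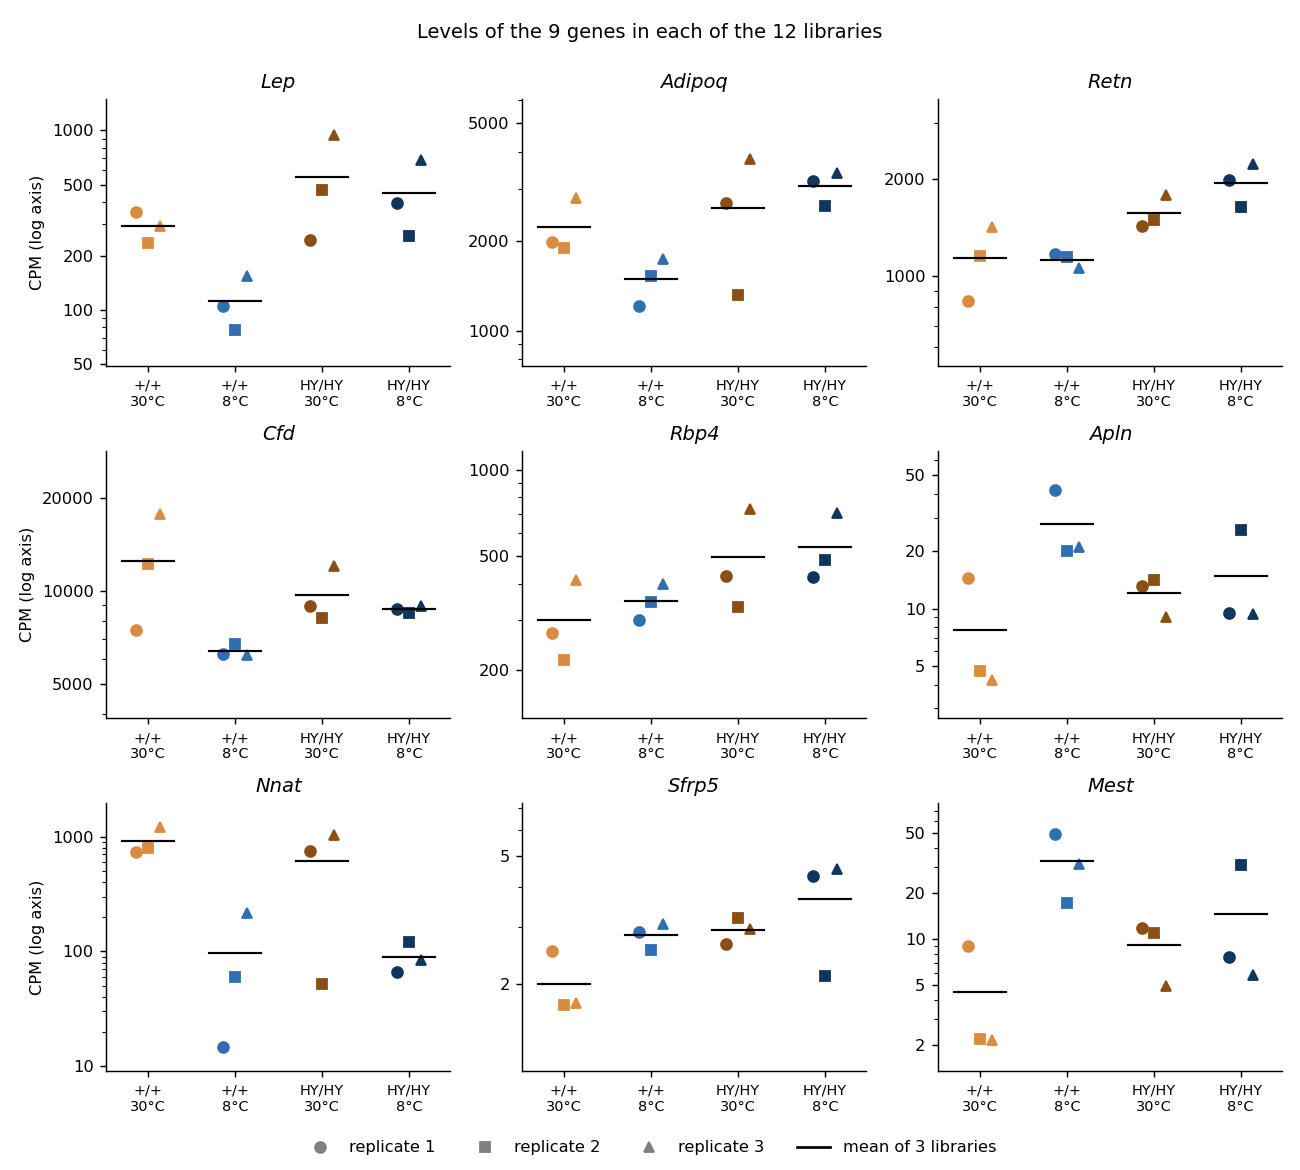
Level of each of the 9 genes in CPM (log axis) in the 12 libraries, by genotype and temperature, with marker shapes for replicate numbers and bars for group means. In +/+ mice *Nnat* falls from a mean of 918 CPM at 30°C to 97.5 at 8°C, *Lep* from 293 to 113, and *Mest* rises from 4.48 to 32.5.

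The first comparison asked how a week of cold changes these genes in +/+ mice. Of the 9 genes, 2 were called higher at 8°C (*Apln* and *Mest*) and 3 lower (*Lep*, *Cfd* and *Nnat*), where a call needs an edgeR adjusted p under 0.05 and a fold over 1.5 or under 0.67. Among the 16540 genes tested, 10.3% were called higher and 6.93% lower. The median log2 fold change of the 9 genes was -0.01, beside -0.069 over all genes tested. In 3 genes all 8°C libraries lay above all 30°C libraries, as in 20.7% of genes tested, and in 4 they lay below, as in 22.7%.

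*Lep* codes for leptin, the hormone that informs the brain of fat stores. Its level in +/+ mice was 351, 235 and 294 CPM at 30°C and 105, 77.9 and 155 CPM at 8°C. Each cold library lay below each library from 30°C. The log2 fold change was -1.38 ± 0.46 (SE of the fit, n = 3 against 3, adjusted p = 0.04939), a level 0.385-fold that at 30°C with a 95% interval of -2.39 to -0.37 in log2 units. The adjusted p is close to the limit, and the call was lost in 8 of the 12 fits that left out 1 library, each of the 6 +/+ libraries among them, as well as HY/HY replicate 2 at 30°C and HY/HY replicate 1 at 8°C. In those 12 fits the adjusted p ran from 0.01884 to 0.1668, and *Lep* was lower in cold in all of them. The call was also lost when mitochondrial genes were left out of the library totals (adjusted p = 0.05075).

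*Cfd* codes for a serine protease of the alternative complement pathway, and it is among the most abundant adipocyte transcripts. Its level was 7470, 12186 and 17707 CPM at 30°C and 6229, 6704 and 6184 CPM at 8°C. The cold libraries lay close together below a wide spread at 30°C. The log2 fold change was -0.97 ± 0.29 (adjusted p = 0.03323), or 0.512-fold. Leaving out 1 library gave adjusted p-values of 0.01182 to 0.1033 and lost the call in 6 fits, namely without replicate 2 or 3 at 30°C, without any 1 of the 3 cold +/+ libraries, and without HY/HY replicate 2 at 8°C. Without replicate 3 at 30°C, the library with 17707 CPM, the log2 fold change was -0.62 (adjusted p = 0.09847). A fit on the 6 +/+ libraries alone gave an adjusted p of 0.05623.

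*Nnat*, an imprinted gene expressed in adipocytes and neuroendocrine cells, had the largest decrease of the 9 genes. Its level was 734, 798 and 1222 CPM at 30°C and 14.6, 60 and 218 CPM at 8°C. The ranges did not overlap, and the cold libraries differed among themselves far more than those from 30°C. The log2 fold change was -3.23 ± 0.99 (adjusted p = 0.03353), a level 0.106-fold that at 30°C. The call was lost without any 1 of the 3 libraries from 30°C and without cold replicate 1 or 2, with adjusted p from 0.009625 to 0.1182 over the 12 fits. The size rested on cold replicate 3, without which it was -4.62 (adjusted p = 0.02028). Because *Nnat* lies inside *Blcap*, it was also fitted on counts of both strands, which gave -3.22 (adjusted p = 0.0337).

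*Apln* codes for apelin, the ligand of the receptor *Aplnr*, and is made by adipocytes and by endothelial tip cells. Its level was 14.4, 4.72 and 4.25 CPM at 30°C and 41.9, 20 and 21 CPM at 8°C. All cold libraries were higher, and replicate 1 was the highest of its group at both temperatures. The log2 fold change was 1.83 ± 0.52 (adjusted p = 0.02575), a 3.55-fold higher level. The call was lost without replicate 2 or 3 at 30°C or without cold replicate 1, with adjusted p from 0.007189 to 0.1021 over the 12 fits. Without replicate 1 at 30°C the log2 fold change was 2.62.

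*Mest*, imprinted and expressed from the paternal allele, rose the most. Its level was 9.05, 2.2 and 2.18 CPM at 30°C and 48.9, 17.4 and 31.3 CPM at 8°C. The lowest cold library lay above the highest library from 30°C. The log2 fold change was 2.86 ± 0.72 (adjusted p = 0.01516), a 7.27-fold higher level. The call was lost without replicate 2 at 30°C or without cold replicate 1, with adjusted p from 0.007121 to 0.05983 over the 12 fits. Without replicate 1 at 30°C the log2 fold change was 3.89.

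*Mest* and *Copg2* run toward each other over their shared bases, and 8.22% to 74.8% of the counts at *Mest* were on its antisense strand. Read pairs that both genes could hold numbered 65 to 318 a library. When both strands were counted together, which drops the pairs that both genes could hold, *Mest* held 128, 62 and 42 counts in +/+ mice at 30°C and 400, 147 and 250 at 8°C. On this measure too each cold library was higher, and its log2 fold change was 2.47 (adjusted p = 0.01151). *Copg2* itself had a log2 fold change of -0.04.

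The other 4 genes were not called in this comparison. *Adipoq* codes for the insulin-sensitizing adipokine adiponectin, and its level was 1995, 1895 and 2789.9 CPM at 30°C and 1213, 1528 and 1745 CPM at 8°C. Its cold libraries all lay lower, yet the log2 fold change of -0.57 ± 0.32 did not pass (adjusted p = 0.2121, 95% interval -1.28 to 0.13). Scaling by library totals in place of TMM gave -0.90 (adjusted p = 0.02123), a call, and that scaling moved the median of all genes to -0.406. *Sfrp5* was at 2.54, 1.73 and 1.75 CPM at 30°C and 2.9, 2.56 and 3.08 at 8°C, all cold libraries higher, with a log2 fold change of 0.50 that did not pass (adjusted p = 0.219).

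*Retn* and *Rbp4* had overlapping libraries. *Retn*, which codes for a hormone of mouse adipocytes known to oppose insulin action, was at 839.8, 1152 and 1419 CPM at 30°C and 1171, 1144 and 1063 CPM at 8°C. Its log2 fold change was -0.01 with a 95% interval of -0.46 to 0.43 (adjusted p = 0.9693). *Rbp4* was at 269, 217 and 413 CPM at 30°C and 300, 345 and 398 CPM at 8°C, with a log2 fold change of 0.21 and an interval of -0.46 to 0.89 (adjusted p = 0.6488). The log2 fold change of *Rbp4* was 0.03 without replicate 2 at 30°C and 0.52 without replicate 3 at 30°C.

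Genes of other cell types moved with the same comparison, and their part in these results was not tested. All 6 beige adipocyte genes were called higher in the cold, with a summed level of 48.2 to 146 CPM at 30°C and 7650.5 to 8629.6 CPM at 8°C. Of 5 endothelial genes, 3 were called higher, with sums of 424 to 622 and 744 to 1037 CPM. Of 6 epithelial genes of the mammary gland 2 were called lower, with sums of 2056 to 3752 and 1332 to 1495 CPM. Of the 5 muscle genes 4 were called lower, with sums of 9.01, 1091 and 20.1 CPM at 30°C and 2.82 to 10.6 CPM at 8°C. Macrophage genes (69.6 to 83.1 and 61 to 63.4 CPM) and lymphocyte genes (3.93 to 18.1 and 3.97 to 9.06 CPM) had no call. Of 5 progenitor genes 1 was called higher and 1 lower, with sums of 368 to 522 and 349 to 404 CPM. Of 5 nerve genes 1 was called higher (sums of 89.7 to 158 and 135 to 159 CPM), and 2 erythroid genes had no call (70.7 to 186 and 183 to 245 CPM). In whole tissue, fewer cells of a type and less RNA per cell cannot be told apart.

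Without the library rich in muscle genes, none of the 5 calls passed, while the fold changes kept their direction. Over all 16808 genes tested, that fit called 1356 higher and 545 lower. *Lep* was then at -1.51 (adjusted p = 0.07268), *Cfd* at -0.98 (0.07066), *Nnat* at -3.32 (0.06199), *Apln* at 1.56 (0.09266) and *Mest* at 2.52 (0.05983). The same count of 0 calls was reached without cold +/+ replicate 1, where 1483 of 16959 genes tested were called higher and 695 lower. A fit without a +/+ library has 2 libraries on that side.

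As a second reading, each gene was set against the mean log2 level of the 8 general adipocyte genes in the same library, whose summed level was 17571 to 30287 CPM in +/+ mice at 30°C and 28179 to 36355 at 8°C. These genes moved too. *Aqp7*, a glycerol channel of adipocytes, was called higher with cold at 0.84 on the log2 scale (adjusted p = 0.02922). That call was lost in 5 of the 12 fits that left out 1 library. It was also lost with library totals in place of TMM, where the value was 0.52. Of the 8 genes, 7 had a positive fold change, and the median of the 8 was 0.37. So a relative level below that at 30°C holds a rise of the reference as well. On this log2 scale *Adipoq* lay at 0.57 to 0.79 relative to the adipocyte mean at 30°C and at -0.28 to -0.16 at 8°C. *Lep* lay at -2.67 to -1.73 at 30°C and at -4.51 to -3.65 at 8°C. *Cfd* lay at 2.68 to 3.48 at 30°C and at 1.66 to 2.08 at 8°C. In these 3 genes, and in *Nnat* (-0.67 to -0.46 and -6.64 to -3.16) and *Mest* (-9.68 to -7 and -6.66 to -4.91), the ranges of the temperatures did not overlap. The ranges of *Apln*, -8.75 to -6.34 and -6.53 to -5.13, overlapped, as did those of *Retn*, *Rbp4* and *Sfrp5*.

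The second comparison asked the same of HY/HY mice. None of the 9 genes was called, by edgeR or by DESeq2, and 1 (*Nnat*) had an unadjusted p under 0.05, while 0.248% of all genes tested were called, 30 higher and 11 lower. The labels do not pair the libraries of the 2 temperatures. A fit with the replicate number as a block called 128 genes higher and 32 lower, again with 0 of the 9. No gene of the 9 had separate libraries at the 2 temperatures, where 9.33% of genes tested had all cold libraries above and 8.99% all below, and the median log2 fold change of the 9 was 0.25, beside -0.015 over all genes. Among genes of other cell types, 3 of the 6 beige genes were called higher with cold in HY/HY mice. Their sums were 45.6 to 169 CPM at 30°C and 417 to 1506 CPM at 8°C. The other cell type lists had no call, and the part of these shifts was not tested. The groups themselves were wide, as the levels at 30°C in the next paragraphs show.

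*Nnat* was at 754, 52.1 and 1041 CPM in HY/HY mice at 30°C and at 66, 119.9 and 83.7 CPM at 8°C. Replicate 2 at 30°C lay below all 3 cold libraries, and the other 2 lay far above them. The log2 fold change was -2.78 ± 0.97 (adjusted p = 0.2293). Without that replicate it was -3.32 (adjusted p = 0.1945) and without replicate 3 at 30°C -2.16 (adjusted p = 0.218), the lowest and highest of the 12 fits that left out 1 library.

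*Lep* was at 244, 465 and 941 CPM at 30°C and 397, 259 and 689 CPM at 8°C in HY/HY mice, with a log2 fold change of -0.30 and a 95% interval of -1.29 to 0.70 (adjusted p = 0.802). *Cfd* was at 8915, 8196 and 11987 CPM and at 8751, 8470.2 and 8901 CPM, a log2 fold change of -0.16 with an interval of -0.79 to 0.48 (adjusted p = 0.841). Both intervals reach from a fall to a rise. Without HY/HY replicate 3 at 30°C, which held the 941 CPM, *Lep* was at 0.34 (adjusted p = 0.6731) and *Cfd* at 0.03 (adjusted p = 0.9688). For *Mest* the levels were 11.8, 10.9 and 4.93 CPM at 30°C and 7.63, 30.6 and 5.84 CPM at 8°C.

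*Apln* followed the same libraries as *Mest*, at 13.2, 14.1 and 9.03 CPM at 30°C and 9.44, 25.9 and 9.41 CPM at 8°C. In both genes cold HY/HY replicate 2 was the highest of its genotype and the other 2 cold libraries were in the range of those from 30°C. The log2 fold changes were 0.67 for *Mest* (adjusted p = 0.6876) and 0.30 for *Apln* (adjusted p = 0.8234). Both turned direction without cold HY/HY replicate 2, to -0.45 for *Mest* and -0.37 for *Apln*. That replicate also had the highest sum of the beige genes among cold HY/HY libraries, which were at 1075, 1506 and 417 CPM.

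The remaining genes of HY/HY mice had fold changes between 0.12 and 0.31 on the log2 scale. *Adipoq* was at 2689, 1321 and 3786 CPM at 30°C and 3193, 2636 and 3409 CPM at 8°C. *Retn* was at 1429, 1489 and 1793 CPM and at 1996, 1637 and 2227 CPM. Within each same-numbered pair *Retn* was higher at 8°C. In the fit with the replicate number as a block its log2 fold change was 0.32 (adjusted p = 0.3848), not a call. *Rbp4* was at 425, 333 and 727 CPM and at 422, 486 and 705 CPM. These overlapped throughout, as did *Sfrp5* at 2.67, 3.2 and 2.96 CPM against 4.33, 2.12 and 4.54 CPM. Without replicate 3 at 30°C none of the 9 genes was called, while 461 of 16926 genes tested were called higher and 203 lower. In that fit *Adipoq* was at 0.62 (adjusted p = 0.2358) and *Rbp4* at 0.51 (adjusted p = 0.3147). Other fits turned their direction. Without replicate 2 at 30°C *Adipoq* was at -0.07 and *Rbp4* at -0.1, and without cold replicate 3 *Rbp4* was at -0.12.

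**Figure D2:**
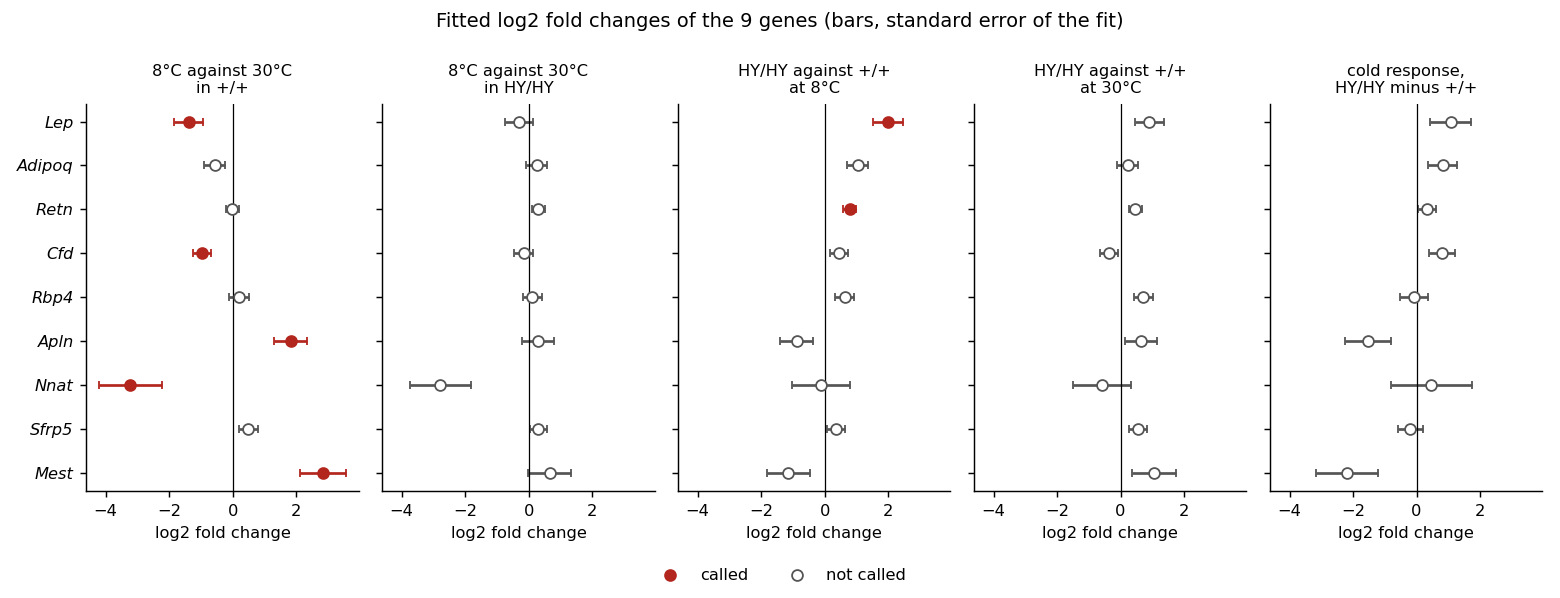
Fitted log2 fold changes of the 9 genes with the standard error of the fit in the 5 comparisons, called genes in red. In +/+ mice the values in cold run from -3.23 for *Nnat* to 2.86 for *Mest*, in HY/HY mice no gene is called, and at 8°C *Lep* (1.99) and *Retn* (0.79) are called higher in HY/HY mice.

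The genotypes were then compared at 8°C. This comparison shares the cold +/+ libraries with the first one and the cold HY/HY libraries with the second, so the values are to be read side by side and not as separate evidence. Of the 9 genes, 2 (*Lep* and *Retn*) were called higher in HY/HY mice and 0 lower, against 1.51% of all genes called higher and 4.42% called lower. DESeq2 called 3 higher (*Lep*, *Adipoq* and *Retn*), which were also the 3 genes with an unadjusted edgeR p under 0.05. In 5 genes (*Lep*, *Adipoq*, *Retn*, *Cfd* and *Rbp4*) all HY/HY libraries lay above all +/+ libraries, as in 16.4% of genes tested. The median log2 fold change of the 9 genes was 0.45, beside 0.012 over all genes.

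The level of *Lep* at 8°C was 105, 77.9 and 155 CPM in +/+ and 397, 259 and 689 CPM in HY/HY mice. Every HY/HY library exceeded the highest +/+ library. The log2 fold change was 1.99 ± 0.47 (adjusted p = 0.02655), a 3.97-fold higher level with a 95% interval of 0.96 to 3.02 in log2 units. *Retn* was at 1171, 1144 and 1063 CPM in +/+ and 1996, 1637 and 2227 CPM in HY/HY mice, again without overlap. Its log2 fold change was 0.79 ± 0.20 (adjusted p = 0.03621, interval 0.35 to 1.24), a 1.74-fold higher level. Both calls were lost without any 1 of the 3 cold +/+ libraries and without cold HY/HY replicate 1 or 3, with adjusted p of 0.009193 to 0.1186 for *Lep* and 0.02168 to 0.1391 for *Retn* over the 12 fits. Both genes stayed higher in HY/HY mice in all 12.

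*Adipoq* was 2.06-fold higher, at 1213, 1528 and 1745 CPM in +/+ and 3193, 2636 and 3409 CPM in HY/HY mice. The libraries were well apart, yet the log2 fold change of 1.04 ± 0.33 did not pass in edgeR (adjusted p = 0.07666), whereas DESeq2 gave an adjusted p of 0.01417. It also passed in a fit on the 6 cold libraries alone (adjusted p = 0.003773). Over the 12 fits that left out 1 library the adjusted p ran from 0.0185 to 0.2178. It passed without HY/HY replicate 2 (0.0185) or 3 (0.03029) at 30°C, and was 0.1074 or more without any 1 of the cold libraries. Relative to the 8 adipocyte genes, *Adipoq* lay at -0.28 to -0.16 log2 units in cold +/+ mice and at 0.28 to 0.58 in cold HY/HY mice. On that scale *Lep* also had separate ranges, -4.51 to -3.65 in +/+ and -3 to -2.03 in HY/HY mice. The ranges of *Retn*, -0.88 to -0.33 and -0.34 to -0.1, overlapped, as did those of *Cfd* (1.66 to 2.08 and 1.66 to 2.04), *Rbp4* (-2.36 to -2.29 and -2.34 to -2) and the other 4 genes.

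*Cfd* and *Rbp4* were higher in all cold HY/HY libraries without passing the test. *Cfd* was at 6229, 6704 and 6184 CPM in +/+ and 8751, 8470.2 and 8901 CPM in HY/HY mice, a narrow spread on both sides, with a log2 fold change of 0.45 (adjusted p = 0.4027). *Rbp4* was at 300, 345 and 398 CPM against 422, 486 and 705 CPM, with a log2 fold change of 0.63 (adjusted p = 0.2597) that was 0.39 without HY/HY replicate 3. In a fit on the 6 cold libraries alone *Cfd* had an adjusted p of 0.01994 and was still not called, since its log2 fold change of 0.46 is under the limit of a 1.5-fold difference.

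The 2 genes that rose with cold in +/+ mice had values below 0 in this comparison without a call. *Apln* was at 41.9, 20 and 21 CPM in +/+ and 9.44, 25.9 and 9.41 CPM in HY/HY mice (log2 fold change -0.88, adjusted p = 0.3428). *Mest* was at 48.9, 17.4 and 31.3 against 7.63, 30.6 and 5.84 CPM (-1.14, adjusted p = 0.3579). In both, HY/HY replicate 2 lay within the +/+ range and the other 2 HY/HY libraries lay below it. Without that replicate *Apln* was at -1.55 (adjusted p = 0.1204) and *Mest* at -2.27 (adjusted p = 0.08143), whereas without cold +/+ replicate 1 they were at -0.45 (adjusted p = 0.7054) and -0.72 (adjusted p = 0.6534). *Nnat* (-0.12, adjusted p = 0.9603) and *Sfrp5* (0.36, adjusted p = 0.5076) overlapped between genotypes, and the interval of *Nnat*, -2.10 to 1.87, leaves room for a sizeable difference in either direction. The value of *Sfrp5* was 0.18 without cold HY/HY replicate 3 and 0.64 without cold HY/HY replicate 2.

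Among cells of other types, 5 of the 6 beige genes were called lower in cold HY/HY mice (417 to 1506 CPM in sum, against 7650.5 to 8629.6 in +/+). Of 5 macrophage genes 3 were called higher, with sums of 108 to 161 against 61 to 63.4 CPM. The endothelial sum was 598 to 781 against 744 to 1037 CPM and the sum over the 8 adipocyte genes 34153 to 50135 against 28179 to 36355 CPM, with no call in either list. Sums lay lower in every HY/HY library for mammary epithelial genes (739.8 to 1231 against 1332 to 1495 CPM) and erythroid genes (90.7 to 174 against 183 to 245 CPM), without a call, and 1 of 5 nerve genes was called lower (sums of 132 to 157 against 135 to 159 CPM). The part of these shifts in the values of *Lep*, *Retn* and *Adipoq* was not tested.

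At 30°C no gene of the 9 was called between genotypes by edgeR or DESeq2, against 1.00% of all genes, and 2 (*Retn* and *Rbp4*) had an unadjusted edgeR p under 0.05. *Retn* (839.8, 1152 and 1419 CPM in +/+, 1429, 1489 and 1793 CPM in HY/HY mice) and *Sfrp5* (2.54, 1.73 and 1.75 against 2.67, 3.2 and 2.96 CPM) were higher in every HY/HY library, a pattern that 7.67% of genes tested had. The margin of *Retn* was small, 1419 against 1429 CPM. Its log2 fold change was 0.47 (adjusted p = 0.246), and that of *Sfrp5* was 0.55 (adjusted p = 0.317). Without +/+ replicate 1 *Retn* was at 0.29 (adjusted p = 0.5186). Genes of other cell types were not called here either, but the sum of the 6 mammary epithelial genes lay lower in every HY/HY library (529.5 to 1471 CPM, against 2056 to 3752 in +/+ mice). All 5 macrophage genes had a positive fold change (median 0.60), with sums of 81.8 to 139.9 against 69.6 to 83.1 CPM. The part of these in the values of *Retn* and *Sfrp5* was not tested.

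The levels of *Rbp4* at 30°C were 269, 217 and 413 CPM in +/+ and 425, 333 and 727 CPM in HY/HY mice, overlapping, and the log2 fold change was 0.72 (adjusted p = 0.2409). *Lep* was at 351, 235 and 294 CPM against 244, 465 and 941 CPM, with a log2 fold change of 0.91 that did not pass (adjusted p = 0.315, interval -0.09 to 1.91). The median log2 fold change of the 9 genes was 0.55 and that of all genes -0.008. The values of *Cfd* (-0.36) and *Nnat* (-0.58) were below 0 and those of the remaining 7 genes above 0.

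Several of these sizes rested on 1 library, and none of the 9 genes was called without either of the libraries that stood apart. Over all genes, 47 were called higher and 24 lower without HY/HY replicate 3, and 11 and 25 without +/+ replicate 2. Without HY/HY replicate 3 *Lep* was at 0.28 (adjusted p = 0.8274), *Rbp4* at 0.34 (0.6576), *Adipoq* at -0.15 (0.8862), *Nnat* at -1.18 (0.6814) and *Mest* at 1.35 (0.4707). Without +/+ replicate 2 *Lep* was at 0.77, *Rbp4* at 0.54, *Retn* at 0.48, *Sfrp5* at 0.45, *Apln* at 0.38 and *Mest* at 0.71, where the fit on all libraries gave 0.65 for *Apln* and 1.05 for *Mest*. Without +/+ replicate 1, the highest of its group in both, *Apln* was at 1.44 (adjusted p = 0.2066) and *Mest* at 2.08 (adjusted p = 0.223). Without +/+ replicate 3 *Cfd* was at -0.02, and without HY/HY replicate 2 *Nnat* was at -0.03.

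Whether cold acted differently in the 2 genotypes was tested with the interaction term. None of the 9 genes passed by edgeR or DESeq2, 1 (*Mest*) had an unadjusted edgeR p under 0.05, and 2.24% of all genes passed. *Mest* came nearest, at a log2 difference of -2.19 ± 0.97 (cold change in HY/HY minus that in +/+, adjusted p = 0.3173, interval -4.31 to -0.06). The value for *Apln* was -1.53 ± 0.72 (adjusted p = 0.3509, interval -3.11 to 0.05) and that for *Lep* was 1.08 ± 0.65 (adjusted p = 0.4651, interval -0.33 to 2.49). So the 5 calls in +/+ mice and their absence in HY/HY mice were not shown to differ. *Adipoq* (0.82, adjusted p = 0.4307) and *Cfd* (0.81, adjusted p = 0.3943) were also short of the limit, and *Nnat* was at 0.46 with an interval of -2.34 to 3.25. Leaving out 1 library moved several of these by over 1.5 times without a call. *Mest* ran from -3.32 (without cold HY/HY replicate 2, adjusted p = 0.1112) to -1.78, and *Apln* from -2.32 (without +/+ replicate 1 at 30°C, adjusted p = 0.1397) to -1.10. *Lep* ran from 0.62 without cold HY/HY replicate 3 to 1.71 without HY/HY replicate 3 at 30°C (adjusted p = 0.1749). *Adipoq* ran from 0.50 without HY/HY replicate 2 to 1.19 without replicate 3 at 30°C, *Cfd* was at 0.47 without +/+ replicate 3 at 30°C, and *Nnat* was at 1.84 without cold +/+ replicate 3. Without the library rich in muscle genes *Mest* was at -1.84, *Apln* at -1.26 and *Lep* at 1.22, with adjusted p of 0.5098, 0.5467 and 0.5264.

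**Figure D3:**
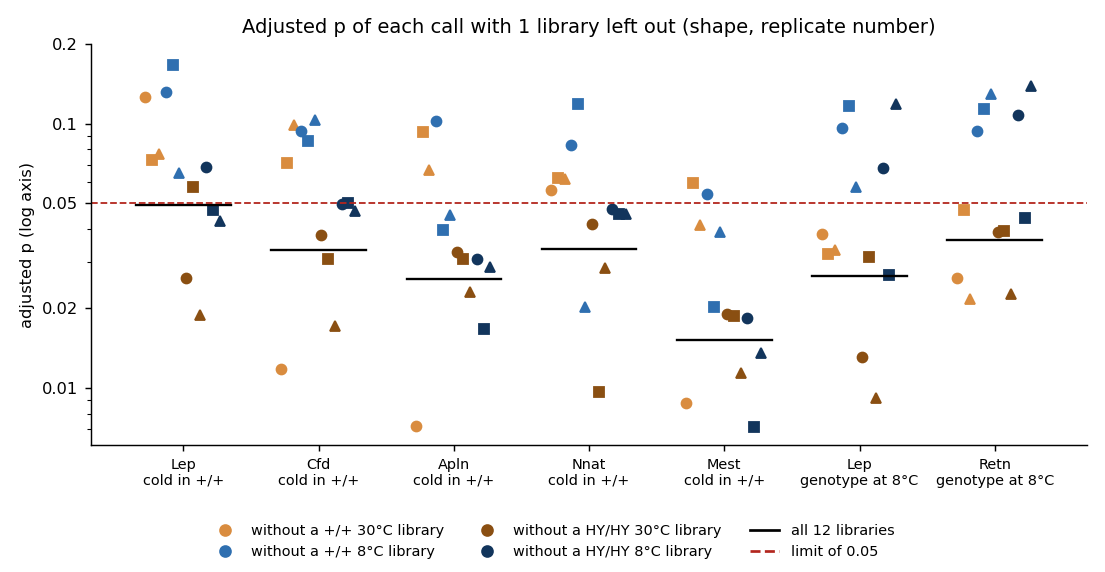
Adjusted p (log axis) of each called gene among the 9 in the fits that leave out 1 of the 12 libraries, coloured by the group of that library, with a black line for the fit on all 12 and a dashed line at 0.05. *Lep* in +/+ mice crosses the limit in 8 of 12 fits and *Mest* in 2, with values up to 0.1668 and 0.05983.

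The genes did not vary independently of each other from library to library. Pearson's r of log2 CPM over the 12 libraries is given as a description, since libraries of a group share their treatment and depth. *Apln* and *Mest* had an r of 0.98, and of 0.96 after the mean of each group was taken away, so that their common rise and fall was as close among libraries of a group. *Retn* and *Cfd* had an r of 0.33 over the libraries and 0.88 within groups, *Adipoq* and *Rbp4* 0.74 and 0.83, and *Adipoq* and *Nnat* 0.49 and 0.84. *Cfd* and *Apln* ran opposite to each other at -0.87.

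**Figure D4:**
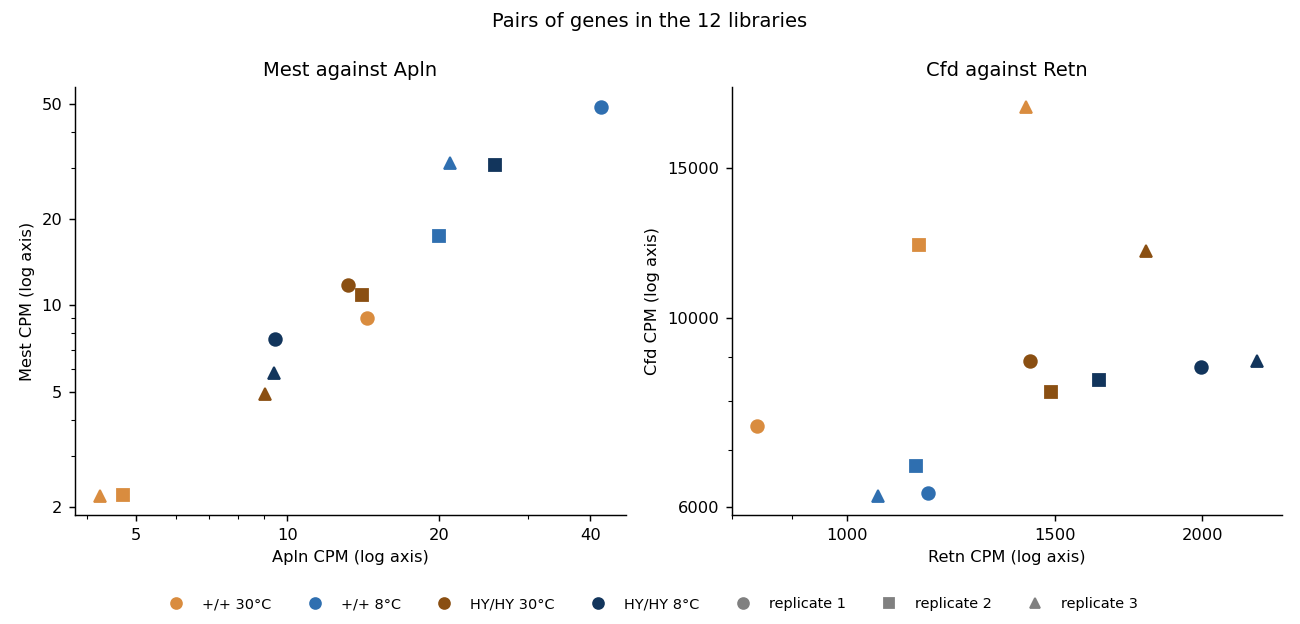
Levels of pairs of the genes against each other in the 12 libraries (CPM, log axes), coloured by group and with marker shapes for replicate numbers. *Apln* and *Mest* lie along 1 line (r = 0.98) on which the cold +/+ libraries are at the upper end together with cold HY/HY replicate 2.

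For each of the 9 genes, the 3 genes most like it were sought among 14549 candidates by Pearson's r of log2 CPM over the 12 libraries. *Nnat* was closest to *Blcap* (r = 0.932), the gene in which it lies. *Blcap* had a log2 fold change of -0.70 with cold in +/+ mice that did not pass (adjusted p = 0.05655). *Apln* and *Mest* shared *Ampd3*, an AMP deaminase (0.937 and 0.936), and *Cd93*, a surface receptor of endothelial and myeloid cells (0.913 and 0.919), among their closest genes.

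The nearest gene was *Adamts17* for *Mest* (0.956) and *Dclk3* for *Lep* (0.962), which was followed by *Fads1*, a fatty acid desaturase (0.946). *Adipoq* was nearest to *Prnp* (0.967), and *Car3*, the adipocyte carbonic anhydrase, was among its closest genes (0.955). *Rbp4* was nearest to *Hgsnat* (0.968), *Retn* to *Ankef1* (0.959), *Cfd* to *Deaf1* (0.939) and *Sfrp5* to *Smpd4* (0.904). With a second measure of likeness, r after the group means were taken away, *Cfd* kept *Deaf1* as its nearest gene and the other 8 genes had another.

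The signals of these adipokines pass through receptors and partners. With *Blcap* and *Copg2*, the genes that overlap *Nnat* and *Mest*, 46 such genes were listed, 45 were found and 38 had enough counts to be tested. In +/+ mice 1 was called higher with cold (*Aplnr*) and 3 lower (*Socs3*, *Ptpn1* and *Rdh10*), counts to be read beside the 10.3% and 6.93% of all genes called in those directions. In HY/HY mice with cold, between genotypes at 30°C and for the interaction none was called. At 8°C 2 were called higher in HY/HY mice (*C3ar1* and *Aldh1a1*) and none lower, beside 1.51% and 4.42% of all genes. The median log2 fold changes of the 38, both overlapping neighbours included, were -0.27 with cold in +/+ mice and 0.16 between genotypes at 8°C, beside -0.069 and 0.012 over all genes.

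Among the 6 partners of leptin, *Socs3*, the feedback inhibitor that leptin and other cytokines induce, was at 19.4, 24.9 and 24.5 CPM at 30°C and 12.5, 10.9 and 10.4 CPM at 8°C in +/+ mice. The cold libraries were all lower and close together, and the log2 fold change was -1.03 ± 0.24 (adjusted p = 0.009347), a call kept in all 12 fits that left out 1 library. *Ptpn1*, the phosphatase that acts on the leptin and insulin receptors, fell by 0.67 on the log2 scale (adjusted p = 0.02655), a call lost without replicate 1 at 30°C or any 1 of the cold +/+ libraries (highest adjusted p 0.1058). The leptin receptor *Lepr* was at 0.584 to 3.14 CPM over the libraries and had a log2 fold change of -0.10.

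*Aplnr*, the receptor of apelin on endothelial cells, moved as its ligand did. Its level in +/+ mice was 62.7, 37.4 and 53.6 CPM at 30°C and 122, 83.1 and 93.7 CPM at 8°C, with no overlap. The log2 fold change was 0.96 ± 0.26 (adjusted p = 0.01941), and the call was lost without replicate 2 at 30°C (adjusted p = 0.07488) and without cold replicate 1 (adjusted p = 0.07538). With scaling by library totals the log2 fold change was 0.63 (adjusted p = 0.08548), also not a call. In HY/HY mice *Aplnr* was at 64.7, 60.1 and 61.9 CPM at 30°C and 65.3, 84 and 38.7 CPM at 8°C, with cold replicate 2 again the highest. The endothelial sum in the same +/+ groups was 424 to 622 and 744 to 1037 CPM, and its part in the rise of *Aplnr* was not tested.

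Of 6 complement genes tested as partners of adipsin, none was called with cold in +/+ mice, where *Cfd* fell. At 8°C *C3ar1*, the receptor of the fragment C3a, was at 4.31, 3.16 and 2.37 CPM in +/+ and 7.05, 7.31 and 6.24 CPM in HY/HY mice. The libraries of the genotypes did not overlap, and the log2 fold change was 1.07 ± 0.25 (adjusted p = 0.02539). The call was lost without +/+ replicate 2 or 3 or without any 1 of the HY/HY libraries at 8°C (highest adjusted p 0.09937). *C3ar1* is a gene of macrophages, whose 5 marker genes summed to 61 to 63.4 CPM in +/+ and 108 to 161 CPM in HY/HY mice at 8°C, and the part of this in its value was not tested.

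The partners of *Rbp4* include the enzymes that turn retinol into retinoic acid. *Rdh10*, which makes retinaldehyde, was at 19.7, 20.4 and 26.6 CPM at 30°C and 13.3, 16.6 and 12.4 CPM at 8°C in +/+ mice (log2 fold change -0.66 ± 0.14, adjusted p = 0.007171). The call was lost by the fold limit alone without replicate 3 of either +/+ group, with an adjusted p of 0.006453 to 0.03794 over the 12 fits. *Aldh1a1*, which oxidizes retinaldehyde, was at 25.2, 27.4 and 35 CPM in +/+ and 70.5, 56.3 and 175 CPM in HY/HY mice at 8°C, separate by genotype (1.78 ± 0.40, adjusted p = 0.02032). That call was lost without any 1 of the cold +/+ libraries or without HY/HY replicate 3 (highest adjusted p 0.08239), and without the latter its log2 fold change was 1.12.

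No partner of adiponectin or of *Sfrp5* was called in any comparison. The adiponectin receptor *Adipor1* was at 156 to 195 CPM in all 12 libraries and *Adipor2* at 423 to 792 CPM. Of the 9 Wnt pathway genes tested as partners of *Sfrp5*, all had a positive fold change between genotypes at 8°C with a median of 0.53, and none passed. The resistin partner *Cap1* had a log2 fold change of -0.26 with cold in +/+ mice (adjusted p = 0.07098).

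**Figure D5:**
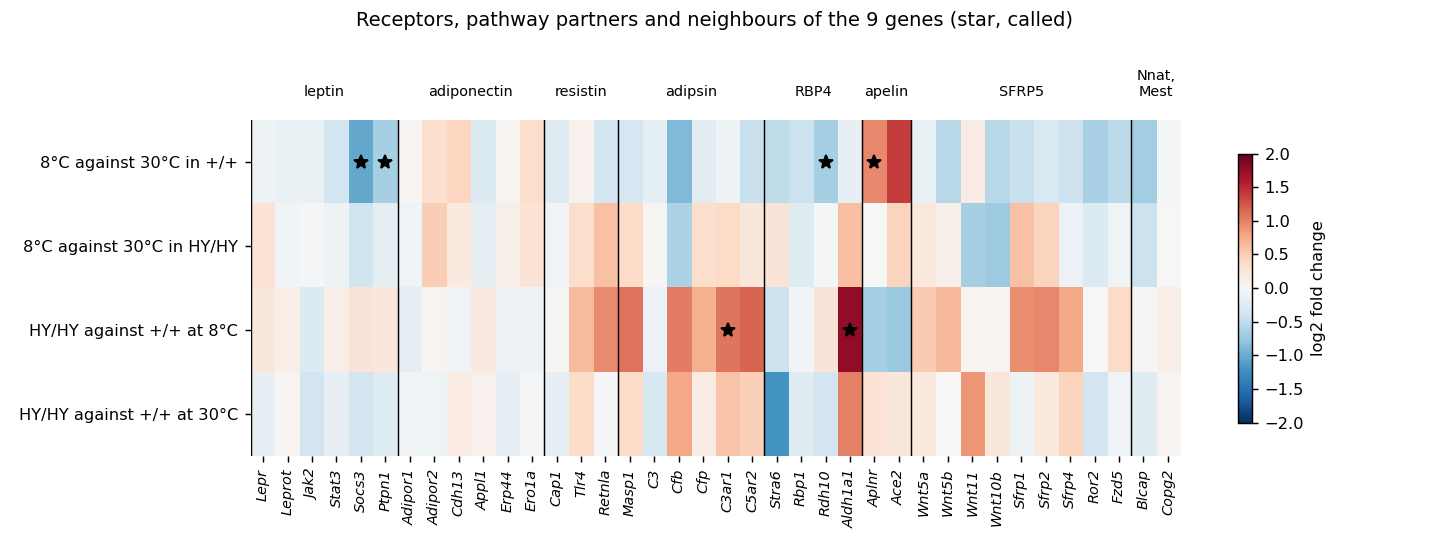
Log2 fold changes of the tested receptors, pathway partners and neighbours of the 9 genes in 4 comparisons, by colour, with a star where a gene is called. Stars mark 4 genes with cold in +/+ mice, 2 between genotypes at 8°C and 0 in the other 2 comparisons.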

How the data were processed

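Each of the 12 deposited tables holds whole-number counts of read pairs per gene, which the authors made from ISOGEN RNA, TruSeq libraries and paired-end Illumina sequencing by trimming with fastp and alignment to mm10 with STAR (the labels also name FastQC and StringTie). The sense strand column was used here. Rows that name no gene were left out, among them unmapped pairs at 25.1% to 28.8% and multimapped pairs at 26.7% to 32.2% of all pairs, and mitochondrial genes took 9.3% to 18% of sense counts. Gene IDs were named from GENCODE gene names (32589 of 55401 matched, of which 2731 that shared a symbol were left out), and 2662 were renamed to the current RefSeq symbol. The 9 genes and all other lists were chosen with earlier results of these data known, and 1 listed gene is not reported here. The naming rule allowed the 9 genes, their receptors, partners and overlapping neighbours, called genes of the other lists, and the 3 genes most like each of the 9, of which the text names some. Uncalled genes of the other lists that are named were chosen after their values were seen. In R 4.3.3, edgeR 4.0.16 (filterByExpr, TMM, quasi-likelihood test, Benjamini-Hochberg adjustment over 16540 genes) was fitted to all 12 libraries with 4 groups, leaving 8 residual degrees of freedom. A call needs an adjusted p under 0.05 and a fold over 1.5 or under 0.67 (for the interaction, the adjusted p alone). For a single gene, 3 libraries against 3 cannot give an exact permutation p under 0.1. In HY/HY mice the deviations of same-numbered libraries at 30°C and 8°C correlated at r = 0.112, 0.199 and 0.303. Libraries with different numbers were not compared. That comparison was also fitted with the replicate number as a block, although the labels do not pair the libraries. Alternatives were DESeq2 1.42.0, library totals, no filter, a minimum of 10 counts in every library, both strands together, no mitochondrial genes in library totals, a replicate block, only the libraries compared, other limits, and each library left out. Lengths for CPM per kb come from merged exons of GENCODE gene models. Likeness used log2 CPM with a prior count of 2. Intervals cover the residual spread of the fit.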

Additional observations from a re-analysis of the deposited data

Results flagged for a closer look

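Of the 166 listed genes found, not all of which had enough counts to be tested, 4 had a cold response that differed between genotypes. This was by the test of the interaction, which 2.24% of all genes passed, and the count is to be read beside that share. None of the 4 was among the 9 genes. *Cebpb*, a transcription factor of adipocyte differentiation and of the cold response of adipose tissue, was at 23, 23.9 and 23 CPM in +/+ mice at 30°C and 54.7, 125 and 98.6 CPM at 8°C. In HY/HY mice it was at 16.3, 23.7 and 34.4 CPM at 30°C and 25.2, 25.2 and 25.6 CPM at 8°C. All cold +/+ libraries lay above the other 9 libraries. The log2 fold change with cold was 1.99 in +/+ mice (adjusted p = 6.0e-04) and 0.04 in HY/HY mice, so that the difference between the responses was -1.96 ± 0.40 (edgeR adjusted p = 0.03097). At 8°C it was lower in HY/HY mice by a log2 fold change of -1.87 (adjusted p = 0.003567). The difference between responses was lost in 8 of the 12 fits that left out 1 library, with adjusted p from 0.008668 to 0.09003, namely without +/+ replicate 1 or 2 at 30°C, +/+ replicate 2 or 3 at 8°C, HY/HY replicate 2 at 30°C, or any 1 of the cold HY/HY libraries. The other 3 belong to the marker lists. *Cox7a1*, a muscle and brown fat form of a subunit of cytochrome c oxidase, was at 4.07, 7.6 and 8.02 CPM at 30°C and 463, 493 and 468 CPM at 8°C in +/+ mice and at 4.68, 6.95 and 13.3 CPM and 47.4, 59.4 and 22.8 CPM in HY/HY mice, a difference between responses of -3.78 ± 0.57 (adjusted p = 0.01131). *S100b*, a calcium-binding protein of glia that adipocytes also make, was at 1.77, 3.06 and 2.39 CPM and 29.3, 29.6 and 35.1 CPM in +/+ mice and at 3.95, 2.27 and 5.3 CPM and 5.17, 5.31 and 4.7 CPM in HY/HY mice, a difference of -3.28 ± 0.38 (adjusted p = 0.006905). Both were kept in all 12 fits that left out 1 library (highest adjusted p 0.04405 and 0.03313). For *Ppargc1a*, a coactivator of mitochondrial genes, the difference was -2.19 ± 0.48 (adjusted p = 0.039), lost in 9 of the 12 fits (highest adjusted p 0.1159) and with library totals in place of TMM (0.06496).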

How the results depend on the processing

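Depth limits *Sfrp5* and *Mest* most, with 33 to 93 and 41 to 659 counts a library. Of the fold changes of the 9 genes, fits that left out 1 library kept direction and call in 485 cases, lost a call in 34, gained one in 2 and reversed a direction in 19, and the other alternatives did so in 417, 9, 7 and 8 cases. The number of genes of the 9 called with cold in +/+ mice ran from 0 to 5 when 1 library was left out, and that between genotypes at 8°C from 0 to 3. Over all genes those fits called 1356 to 1869 higher and 523 to 1531 lower with cold in +/+ mice. Between genotypes at 8°C they called 43 to 408 higher and 301 to 832 lower. With an adjusted p under 0.01 both numbers of the 9 genes were 0. At that limit 1203 of all genes were called higher and 355 lower with cold in +/+ mice. Between genotypes at 8°C these were 25 and 291. Labels give all groups the same replicate numbers. In HY/HY mice each same-numbered pair correlated over 0.1, and in every other pair of groups at least 1 did not (lowest r -0.069). The largest r, 0.346, was between +/+ and HY/HY replicate 3 at 30°C. Libraries with different numbers were not compared, so these values do not show that the numbers pair the libraries. The replicate block is given as an alternative only. With a replicate block, 1 gene was called between genotypes at 30°C (*Rbp4*, 0.70, adjusted p = 0.04965) and *Adipoq* was added between genotypes at 8°C (1.04, adjusted p = 0.02735), with no other call of the 9 genes changed. The block also turned *Retn* with cold in +/+ mice to 0.01 and *Nnat* between genotypes at 8°C to 0.38. Scaling by library totals turned *Rbp4* with cold in +/+ mice to -0.10, *Nnat* at 8°C to 0.04, and the interactions of *Rbp4* and *Sfrp5* to 0.12 and 0. *Retn* with cold in +/+ mice was at 0.02 with DESeq2 and 0 with only the 6 libraries compared. Leaving out 1 library turned the direction of genes that were not called. With cold in +/+ mice *Retn* ran from -0.19 to 0.18. With cold in HY/HY mice *Lep* ran from -0.75 to 0.34, *Adipoq* from -0.07 to 0.62, *Cfd* from -0.26 to 0.03, *Rbp4* from -0.12 to 0.51, *Apln* from -0.37 to 0.55 and *Mest* from -0.45 to 1.05. Between genotypes *Nnat* at 8°C ran from -0.63 to 1.28 and *Adipoq* at 30°C from -0.15 to 0.54. Interactions ran from -0.40 to 0.29 for *Rbp4*, -0.09 to 1.84 for *Nnat* and -0.40 to 0.09 for *Sfrp5*. The cause of these turns was not tested. Over all genes, cold in HY/HY mice gave 30 calls higher and 11 lower, against 216 and 94 with DESeq2, 128 and 32 with the block and 0 with only the libraries compared. Without HY/HY replicate 3 at 30°C, which stood apart, it gave 461 calls higher and 203 lower. Genotype at 30°C gave 93 and 73, against 357 and 312 with DESeq2, 20 and 22 with library totals and 0 with only the libraries compared. Library totals gave 1057 calls higher and 4133 lower with cold in +/+ mice, where TMM gave 1707 and 1147, and 535 and 480 between genotypes at 8°C, where TMM gave 249 and 731. No fit with only the libraries compared exists for the interaction, which uses all 12.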

Other observations

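Of 26 other secreted products of fat that were listed, 20 were tested. With cold in +/+ mice 2 were called higher and 1 lower, beside 10.3% and 6.93% of all genes. Between genotypes at 8°C 3 were called higher and 0 lower, beside 1.51% and 4.42%. With cold in +/+ mice *C1qtnf12* (adipolin, a relative of adiponectin) was at 43.6, 41.4 and 63 CPM at 30°C and 108, 98.6 and 108 CPM at 8°C, and its rise of 1.09 on the log2 scale (edgeR adjusted p = 8.3e-04) was kept in all 12 fits that left out 1 library. *Orm1*, an acute phase glycoprotein, was called higher (1.17, adjusted p = 0.04124) and *C1qtnf2* lower (-0.64, adjusted p = 0.04265), calls lost in 6 and 9 of those fits (highest adjusted p 0.1384 and 0.1596), and that of *C1qtnf2* also with DESeq2, with no filter and with only the libraries compared. At 8°C *Agt*, the precursor of angiotensin, was at 0.668, 1.66 and 5.77 CPM in +/+ and 24.4, 14.3 and 31.5 CPM in HY/HY mice (3.08 ± 0.67, adjusted p = 0.01853). *Serpinf1*, which codes for the anti-angiogenic protein PEDF, was at 105, 102 and 136 against 263, 186 and 285 CPM (1.10, adjusted p = 0.03045) and *C1qtnf1* was higher by 0.92 (adjusted p = 0.04084). These 3 calls were lost in 4, 5 and 7 of the 12 fits (highest adjusted p 0.08346, 0.1219 and 0.1533), and that of *C1qtnf1* also with both strands counted together. No gene of the 20 was called in the other comparisons.

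Of 5 further genes known from studies of fat expansion (*Bmp3*, *Cav1*, *Cav2*, *Cavin1* and *Cavin2*), none was called by edgeR. All 5 had a positive fold change between genotypes at both temperatures, with medians of 0.47 at 8°C and 0.61 at 30°C. *Cav2* at 8°C was at 1.00 ± 0.35 (adjusted p = 0.1132) and *Bmp3* at 0.97 ± 0.41 (adjusted p = 0.1897). In both, all HY/HY libraries lay above all +/+ libraries, as in 16.4% of genes tested. This pair of genes was chosen after their values were seen. Among 13 imprinted genes tested beside *Mest* and *Nnat*, *H19* was at 18.6, 28.4 and 9.56 CPM at 30°C and 7.65, 3.69 and 2.95 CPM at 8°C in +/+ mice, with a log2 fold change of -2 ± 0.44 (adjusted p = 0.007622) that was kept in all 12 fits. At 8°C *Peg10* was higher in HY/HY mice (1.13, adjusted p = 0.03918) and *Meg3* lower (-0.64, adjusted p = 0.03381), calls lost in 7 and 6 of the 12 fits (highest adjusted p 0.1523 and 0.1408). *Meg3* was also not called with library totals in place of TMM. Of the 13 imprinted genes, 0 were called higher and 1 lower with cold in +/+ mice, beside 10.3% and 6.93% of all genes. Between genotypes at 8°C 1 was called higher and 1 lower, beside 1.51% and 4.42%.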
